A study of Mus musculus with 36 samples.

Results

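Transcriptomes of Tet1 catalytic mutant (MUT) cells on day 5 of neural differentiation were compared with those of all wild-type (WT) cells of that day. The comparison took 6 of the 36 libraries of the series: 2 MUT libraries, from the lines CM59 and CM69 of experiment 3, and 4 WT libraries, from WT70 of experiment 3, WT7 and WT34 of experiment 1, and WT7 of experiment 2. Libraries were taken by their labelled genotype, line and day, and no measured value entered the choice. All lines were labelled as mouse embryonic stem cells (ESCs) of the B6129S6F1 Tet1<tm1Koh> stock, and CM59 and CM69 also as made by CRISPR homology-directed repair (HDR). Per the study's methods, the MUT lines are clones of the parental line WT7, and bFGF was given for the early days of a serum-free culture that turns ESCs into anterior neural progenitor cells (antNPCs). WT70 is labelled only as WT, and the labels do not say whether it is a mock-transfected clone. Each MUT line is 1 clone with 1 library, and MUT shares its experiment only with WT70. The p-values rest on a spread estimated over all 36 libraries, KO cells and other days included, and not on these 6 alone.

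TET1 is a dioxygenase that oxidises 5-methylcytosine in DNA, and it also acts on chromatin independently of this activity. In the gastrulating embryo, the epiblast gives rise to neuroectoderm at its anterior side, while cells that pass through the primitive streak form mesoderm and definitive endoderm. Nodal and Wnt signals drive entry into the streak, and neural induction in culture depends on keeping both low. An allele that keeps the protein but removes the oxidation activity is used to separate the activities of TET1.

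The edit is shown first, since it defines the MUT group. The guide (20 bases) matched exon 9 of the 11 exons of transcript Tet1-201 at chr10:62814460-62814479 (GRCm38, GENCODE M21), and its PAM was GGG. The study's methods give exon 11 for the target of the guide, a different number from that of this transcript. The repair template (95 bases) had 86 bases inside that exon, at chr10:62814436-62814521, and changed 3 bases of it. Counted from the 5′ end of the guide, the changes were T8G and G15A within the guide and G22A within the PAM. The first of them made the GGCC site that the exon stretch lacked. The lines below give the guide, the exon stretch on the guide strand and the matching part of the template, with the changed positions in capitals.
sgRNA: gtgaatgTccttgtGagaat
Tet1 exon: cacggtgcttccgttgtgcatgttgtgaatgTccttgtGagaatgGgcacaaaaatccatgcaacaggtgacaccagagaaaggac
Template: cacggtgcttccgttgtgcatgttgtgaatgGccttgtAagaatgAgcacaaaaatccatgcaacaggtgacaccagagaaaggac

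Tet1 mRNA was present in both MUT lines. It stood at 181 and 156 CPM (counts scaled to library size) in CM59 and CM69, against 109 and 117 CPM in WT7 and WT34 of experiment 1, 179 CPM in WT7 of experiment 2 and 168 CPM in WT70. The groups overlapped, and the log2 fold change over all WT was 0.23 ± 0.16 (SE, adjusted p = 0.413, edgeR). Gene counts do not show the edited bases, so the edit itself was not checked here.

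The 6 libraries held 13.1 to 20.0 M expected counts and 24874 to 26441 genes with a count, with 1.21 to 2.97% of counts from mitochondrial genes. The WT libraries did not form a single group. On the first principal component of the 1000 most variable genes (50.8% of their variance), WT7 and WT34 of experiment 1 lay at -50.5 and -48.4, CM59 and CM69 at 34.8 and 33.7, WT7 of experiment 2 at 20.4 and WT70 at 9.98. There WT7 of experiment 2, a second differentiation of the parental line, lay nearer to MUT than to its own line in experiment 1. On that component the library nearest to WT7 of experiment 2 was WT70. Counts of WT7 of experiment 2 differed from CM59, CM69 and WT70 by a chi-square per degree of freedom of 14.2, 15.8 and 16.2. The second component (16.55%) set WT7 of experiment 2 apart from MUT, with 21.5 against -17.8 in CM59 and -19.0 in CM69. On that component WT70 lay at 27.1 and WT34 of experiment 1 at -22.9, and WT7 of experiment 1 lay between MUT and WT70. In bulk RNA, a larger share of cells of a type and more RNA per cell cannot be told apart.

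A gene passed at an adjusted p under 0.05 (edgeR quasi-likelihood test, Benjamini-Hochberg over 20338 tested genes) and a log2 fold change above 1 or below -1. Against all WT, 393 genes were higher (1.93% of those tested) and 293 lower (1.44%) in MUT. Against WT70 alone, 146 were higher (0.718%) and 92 lower (0.452%). Against WT7 and WT34, 385 were higher (1.89%) and 483 lower (2.37%), 4.27% together. The median log2 fold change over all tested genes was 0.00 against all WT, 0.02 against WT70 and 0.01 against WT7 and WT34. WT70 itself differed from WT7 and WT34 in 20 higher genes (0.0983%) and 75 lower genes (0.369%).

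Of the 393 genes higher against all WT, 72 also passed against WT70 and against WT7 and WT34, 233 passed against WT7 and WT34 only, 16 against WT70 only and 72 against neither set alone. Of the 293 lower genes, 68 passed against both sets, 199 against WT7 and WT34 only, 10 against WT70 only and 16 against neither. The genes that passed in all 3 comparisons, 0.354% higher and 0.334% lower of those tested, are called held genes here. All 233 higher genes that passed against WT7 and WT34 only were also above WT70, and 185 of them by more than 1 on the log2 scale. Of the 199 lower genes of that kind, 182 were below WT70, 91 of them by more than 1. Both MUT libraries lay above all 4 WT libraries in 386 of the 393 higher genes, and in 15.4% of all tested genes. They lay below all 4 in 246 of the 293 lower genes, and in 12.0% of all tested genes. Genes chosen by a large fold change and a small p tend to lie apart in this way, so the contrast is no test.

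**Figure D1:**
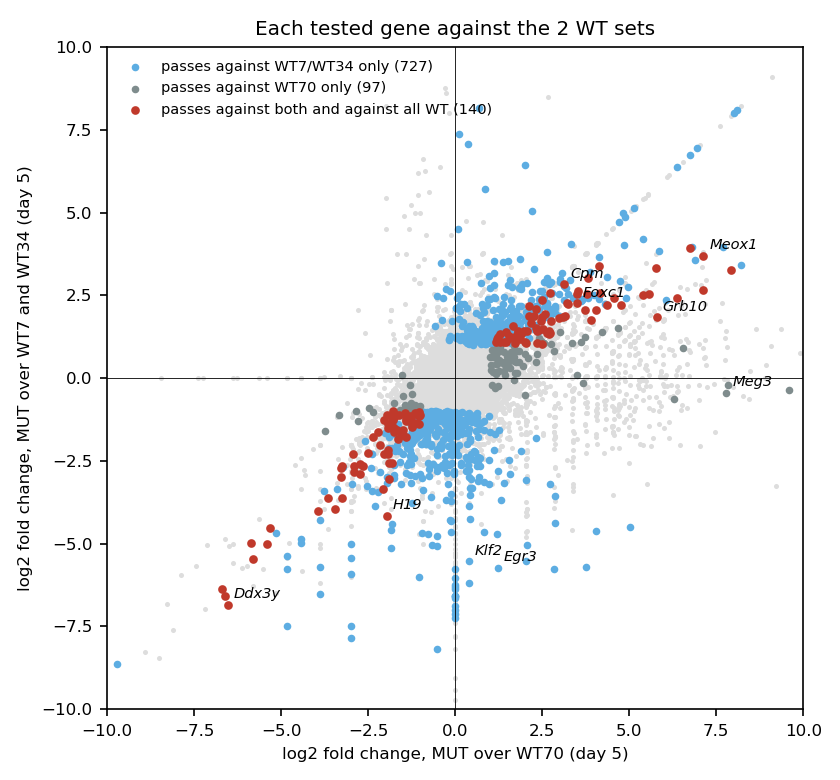
Each point is a tested gene, with its log2 fold change of MUT over WT70 on the x axis and of MUT over WT7 and WT34 on the y axis, day 5. The 140 genes that passed against both sets and against all WT are red, genes that passed against WT7 and WT34 only are blue and those against WT70 only are dark grey, and 6 genes lie outside the axes.

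The test borrows its estimate of spread from all 36 libraries. When only the 6 day 5 libraries were fitted, 1 gene passed against all WT (Ddx3y), 8 passed against WT70 and 0 against WT7 and WT34, where 2957 genes had an unadjusted p under 0.05. DESeq2 on all 36 libraries gave 788, 351 and 915 genes for the same comparisons.

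The neural identity of the culture was checked with antNPC markers. Pax6, a transcription factor of forebrain and eye progenitors, stood at 19.6 and 20.8 CPM in CM59 and CM69, against 18.0 to 23.6 CPM in WT7 and WT34 and 55.1 CPM in WT70. Sox1, which marks neuroectoderm, stood at 79.3 and 98.2 CPM in MUT, against 50.3 to 106 CPM in WT. Sox2, shared by pluripotent and neural progenitor cells, stood at 109 and 124 CPM in MUT and 132 to 186 CPM in WT. Six3, Otx2 and Nes, the other forebrain and neural progenitor markers checked, were also expressed in both MUT lines. They stood at 7.77 to 7.99, 96.1 to 99.3 and 154 to 169 CPM in MUT. The WT levels were 4.06 to 8.55, 96.6 to 202 and 118 to 218 CPM. The highest WT level of Otx2 was that of WT70, and its log2 fold change over WT70 was -1.05. None of these 6 genes passed against any WT set.

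Lhx5, a LIM homeobox gene of the anterior neural plate, depended on the WT set. It stood at 2.37 and 3.91 CPM in CM59 and CM69, against 4.66 to 13.5 CPM in WT7 and WT34 and 6.28 CPM in WT70. Both MUT values were below all WT values, yet Lhx5 passed against WT7 and WT34 (log2 fold change -1.72 ± 0.54, adjusted p = 0.0426, edgeR) and missed against all WT (-1.57 ± 0.52, adjusted p = 0.0603) and WT70 (adjusted p = 0.65). Wnt1 and En1, which pattern the midbrain, and Tubb3, a neuronal tubulin, overlapped between MUT and WT.

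Over the 26 tested members of the anterior neural progenitor list, 0 were higher and 1 was lower against all WT, with a median log2 fold change of -0.04. The median was -0.353 against WT70 and 0.09 against WT7 and WT34. By DESeq2 3 members were lower, and 11 had an unadjusted p under 0.05 in edgeR, beside 4742 of all 20338 tested genes. The lower gene was Lmo1, a LIM-only transcriptional cofactor, at 1.63 and 1.96 CPM in MUT, against 3.99 to 10.6 CPM in WT (log2 fold change -2.06 ± 0.43, adjusted p = 0.00348), and it held against both sets. No gene of the 15 on the forebrain and eye field list passed, with a median of 0.00, 2 at an unadjusted p under 0.05 and 0 by DESeq2. On the midbrain and hindbrain list, 3 of 25 were higher (Hoxb2, Foxa2 and Shh), and none of the 3 held against both sets. Over all tested genes 1.93% were higher and 1.44% lower.

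The early neuronal list moved in both directions. Of 33 tested members, 2 were higher and 6 lower (1.93% and 1.44% of all tested genes), and the median was -0.07. Elavl3, a neuronal RNA-binding protein, was at 2.63 and 2.38 CPM in CM59 and CM69, against 6.25 to 23.1 CPM in WT (log2 fold change -2.46 ± 0.42, adjusted p = 0.000628, edgeR), but missed against WT70 (adjusted p = 0.0788). Nefm, a neurofilament chain, was at 1.84 and 3.39 CPM in MUT and 6.51 to 15.6 CPM in WT, and also missed against WT70 (adjusted p = 0.117). Myt1l, a zinc finger factor of postmitotic neurons, held: it was at 0.368 and 0.429 CPM in MUT, against 2.71 to 3.13 CPM in WT. The 2 higher members, Isl1 and Ebf2, held as well, and Isl1 is also a factor of cardiac progenitors.

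**Figure D2:**
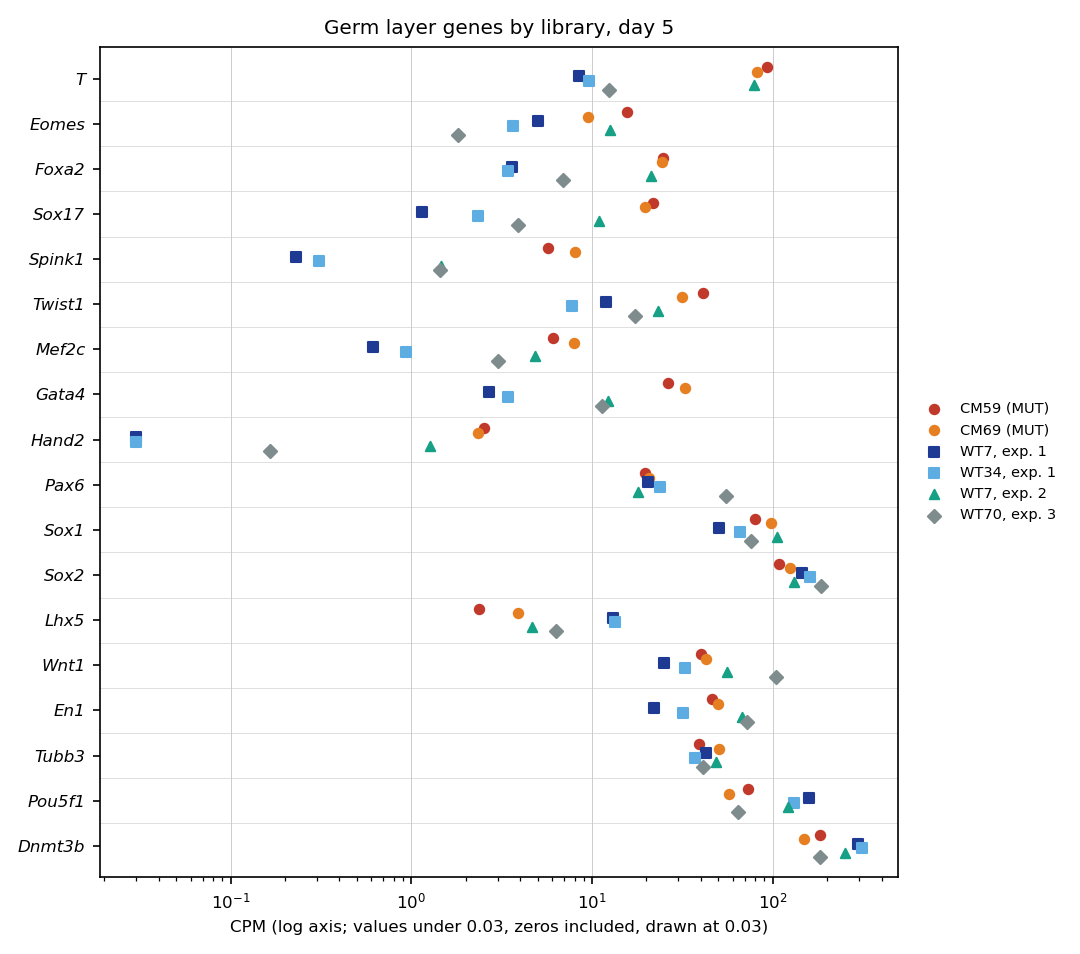
CPM (log axis) of 18 germ layer genes on day 5, with 1 point per library: CM59 and CM69 (circles), WT7 and WT34 of experiment 1 (squares), WT7 of experiment 2 (triangle) and WT70 (diamond). The neural genes Pax6, Sox1, Wnt1, En1 and Tubb3 overlap between MUT and WT, both MUT points of Sox2 lie below WT, and for T and Foxa2 WT7 of experiment 2 lies near the MUT points and the other WT libraries lie lower.

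Many mesodermal transcription factors were higher in MUT, beside 1.93% of all tested genes. Of the 32 tested members of the mesenchymal mesoderm list, 17 were higher against all WT and 0 lower, with a median log2 fold change of 1.60 against 0.00 over all genes, and 8 held against both sets. The summed level of the list was 972 and 982 CPM in MUT, against 475 to 676 CPM in WT. The 17 became 9 without CM59, 10 without CM69 and 11 in limma. Among the held members were Meox1, Six2, Foxc1, Foxc2, Prrx2, Tcf15 and Osr1. None of them stayed held in every fit that left out a library other than WT70.

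Meox1, a homeobox gene of the somites, rose furthest of the held genes of this list with at least 5 CPM. It stood at 15.8 and 16.9 CPM in CM59 and CM69, against 0.153 and 0.387 CPM in WT7 and WT34 of experiment 1, 3.13 CPM in WT7 of experiment 2 and 0.110 CPM in WT70. Both MUT libraries were above all WT libraries, and the log2 fold change over all WT was 4.10 ± 0.73 (adjusted p = 0.00104, edgeR). WT70 held 2 counts of Meox1, and the ratio of MUT to WT70 was 149 (95% exact interval 41.0 to 1231, counting error only).

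Foxc1, a forkhead gene of paraxial mesoderm, had 39.4 and 33.6 CPM in MUT, against 1.99 and 2.94 CPM in WT7 and WT34 of experiment 1, 17.6 CPM in WT7 of experiment 2 and 3.25 CPM in WT70. Its log2 fold change was 2.49 ± 0.44 over all WT (adjusted p = 0.000833), 3.49 ± 0.76 over WT70 and 2.26 ± 0.46 over WT7 and WT34. Its paralog Foxc2 had 22.1 and 15.1 CPM in MUT, and 8.38 CPM in WT7 of experiment 2 against 0.386 to 0.612 CPM in the other WT libraries.

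Six2, a homeobox gene of head and kidney mesenchyme, rose as well, with 6.84 and 6.63 CPM in MUT, against 0.155 to 2.86 CPM in WT7 and WT34 and 0.276 CPM in WT70. Prrx2, a homeobox gene of limb and head mesenchyme, had 21.8 and 19.6 CPM in MUT and 2.48 to 7.98 CPM in WT (log2 fold change 2.17 ± 0.26, adjusted p = 1.01e-05). Tcf15, a basic helix-loop-helix factor of the somites, had 8.36 and 8.68 CPM in MUT and 1.87 to 3.06 CPM in WT. For each of these genes the MUT and WT libraries did not overlap. Osr1 was low throughout, at 0.947 and 0.763 CPM in MUT and 0 to 0.0765 CPM in WT.

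Twist1, a mesenchymal helix-loop-helix factor, passed against WT7 and WT34 but not against WT70. It stood at 40.9 and 31.6 CPM in MUT, against 7.74 to 23.3 CPM in WT7 and WT34 and 17.2 CPM in WT70. The log2 fold change was 1.33 ± 0.23 over WT7 and WT34 (adjusted p = 0.000812, edgeR) and 1.07 ± 0.33 over WT70 (adjusted p = 0.104).

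Cardiac transcription factors were higher in 11 of 18 tested members and lower in 0 (1.93% and 1.44% of all tested genes), with a median of 1.69. Of them 4 held: Isl1, Tbx1, Tbx20 and Smarcd3. The 11 became 3 without CM59, without CM69 or without WT7 of experiment 1, 4 without WT34 of experiment 1 and 4 in limma. Isl1, a LIM homeobox gene of the second heart field, stood at 7.84 and 7.77 CPM in CM59 and CM69, against 0.230 and 0.232 CPM in WT7 and WT34 of experiment 1, 1.66 CPM in WT7 of experiment 2 and 0.441 CPM in WT70 (log2 fold change 3.56 ± 0.49, adjusted p = 6.64e-05, edgeR). Tbx20, a T-box factor of the developing heart, had 7.47 and 7.30 CPM in MUT and 0.765 to 4.13 CPM in WT. Tbx1, a T-box factor of pharyngeal mesoderm, had 10.5 and 8.92 CPM in MUT and 0.110 to 4.13 CPM in WT. Its 2 counts in WT70 gave a ratio of MUT to WT70 of 87.8 (95% exact interval 24.1 to 727).

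Gata4, Mef2c and Hand2 passed against all WT and against WT7 and WT34, but not against WT70. Gata4, which acts in heart and endoderm, stood at 26.2 and 32.5 CPM in MUT, against 2.68 and 3.41 CPM in WT7 and WT34 of experiment 1, 12.3 CPM in WT7 of experiment 2 and 11.3 CPM in WT70. It passed against WT7 and WT34 (log2 fold change 2.24 ± 0.62, adjusted p = 0.022, edgeR) and missed against WT70 (1.38 ± 0.86, adjusted p = 0.598). Mef2c, a myocyte enhancer factor, and Hand2, a helix-loop-helix factor of the heart, did likewise at lower levels: 6.10 and 7.96 CPM for Mef2c and 2.52 and 2.34 CPM for Hand2 in MUT. Hand2 had 1.26 CPM in WT7 of experiment 2, 0 CPM in both experiment 1 libraries and 0.165 CPM in WT70.

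Genes of the contractile apparatus were mostly not past the threshold. On the cardiac sarcomere list 3 of 17 were higher (Myh6, Myh7 and Ryr2) and 1 lower (Acta1), with a median of 0.28. Over all tested genes 1.93% were higher and 1.44% lower. Myh6, a cardiac myosin heavy chain, held, at 2.73 and 3.19 CPM in MUT against 0.551 to 1.13 CPM in WT. Myl7 (1.53 and 1.62 CPM in MUT, 0.221 to 1.26 CPM in WT) and Tnnt2 (0.841 and 1.62 CPM in MUT, 0.551 to 1.08 CPM in WT), an atrial myosin light chain and a troponin of the heart, did not pass.

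**Figure D3:**
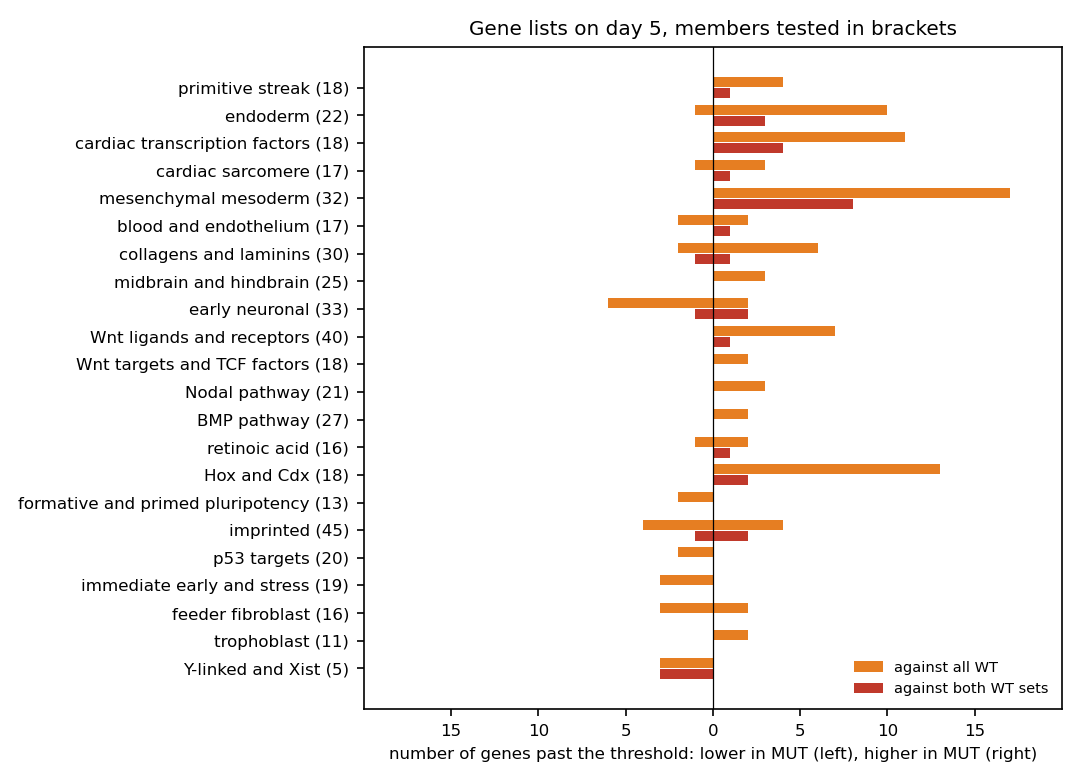
Number of genes past the threshold on day 5 in each gene list with at least 2 such genes, higher in MUT to the right and lower in MUT to the left, with the number of tested members in brackets. Orange bars count genes against all WT and red bars those that also passed against WT70 and against WT7 and WT34. Mesenchymal mesoderm (17 higher), Hox and Cdx (13), cardiac transcription factors (11) and endoderm (10) have the longest bars.

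Endoderm genes were higher in 10 of 22 tested members and lower in 1 (Epcam), with a median of 1.16, and 3 held. Over all tested genes 1.93% were higher and 1.44% lower. The 10 became 5 without CM59, 3 without CM69 and 6 without WT7 or without WT34 of experiment 1. Foxa1, a pioneer forkhead factor of endoderm, stood at 13.4 and 12.9 CPM in CM59 and CM69, against 0.459 and 0.774 CPM in WT7 and WT34 of experiment 1, 5.32 CPM in WT7 of experiment 2 and 1.16 CPM in WT70 (log2 fold change 2.75 ± 0.47, adjusted p = 0.000616, edgeR). Cpm, which encodes the membrane enzyme carboxypeptidase M, stood at 52.1 and 50.6 CPM in MUT and 2.37 to 14.7 CPM in WT (2.91 ± 0.32, adjusted p = 3.55e-06). Prdm1, a transcriptional repressor of endoderm and germ cell precursors, stood at 11.2 and 8.92 CPM in MUT and 0.606 to 4.06 CPM in WT.

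The endoderm markers Sox17, Foxa2 and Spink1 passed against WT7 and WT34 and missed against WT70. Sox17, an HMG-box factor of endoderm, had 21.8 and 19.6 CPM in MUT, against 1.15 and 2.32 CPM in WT7 and WT34 of experiment 1, 10.9 CPM in WT7 of experiment 2 and 3.91 CPM in WT70. Its log2 fold change was 2.08 ± 0.55 over WT7 and WT34 (adjusted p = 0.0175, edgeR) and 2.40 ± 0.83 over WT70 (adjusted p = 0.168). Spink1, a secreted protease inhibitor, had 5.68 and 8.06 CPM in MUT and 0.230 to 1.46 CPM in WT. Foxa2, a forkhead factor of endoderm and of the node, had 24.8 and 24.3 CPM in MUT, against 21.2 CPM in WT7 of experiment 2 and 3.41 to 6.95 CPM in the other WT libraries.

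On the visceral and parietal endoderm list 1 of 12 members was higher (Apob, a lipoprotein) and 0 lower, with 0 held. Of the 12, 10 had an unadjusted p under 0.05 in edgeR, beside 4742 of all 20338 tested genes. The 1 became 0 without CM59, without CM69, without WT7 or without WT34 of experiment 1, 2 without WT7 of experiment 2 and 4 without WT70. Its median was 1.29, both MUT libraries were above all WT libraries in 11 of the 12 (15.4% over all genes), and it summed to 2097 and 2771 CPM in MUT and 807 to 1744 CPM in WT. The longer visceral endoderm list of the study, from an embryo atlas, had 20 of 487 higher and 12 lower, with a median of 0.007. In that list both MUT libraries were above all WT libraries in 119 genes and below them in 76. Sox17 and Foxa2 are also expressed in visceral endoderm, and the part of visceral endoderm in the endoderm values was not tested.

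On the primitive streak list, 4 of 18 were higher and 0 lower (1.93% and 1.44% of all tested genes), with a median of 1.15, and 1 held. The 4 became 1 without CM59, without CM69, without WT7 or without WT34 of experiment 1, 2 without WT70 and 11 without WT7 of experiment 2. T (brachyury), the T-box factor of the streak, stood at 92.5 and 81.6 CPM in CM59 and CM69, against 8.49 and 9.60 CPM in WT7 and WT34 of experiment 1, 78.7 CPM in WT7 of experiment 2 and 12.4 CPM in WT70. It passed against all WT (log2 fold change 1.67 ± 0.49, adjusted p = 0.034, edgeR) and against neither set alone (adjusted p = 0.0774 for WT70 and 0.0679 for WT7 and WT34). WT7 of experiment 2 was thus close to MUT for this gene and far above the other WT libraries. Eomes, a T-box factor that acts under Nodal, had 15.6 and 9.54 CPM in MUT and 12.5 CPM in WT7 of experiment 2, and did not pass (adjusted p = 0.191). The held member was Mesp2, a somite segmentation factor, at 3.10 and 2.19 CPM in MUT and 0.0551 to 0.865 CPM in WT. Its 1 count in WT70 gave a ratio of MUT to WT70 of 47.6 (95% exact interval 8.36 to 1899).

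Hox and Cdx genes, which pattern the trunk along the body axis, were higher in 13 of 18 tested members and lower in 0, with 2 held. Over all tested genes 1.93% were higher and 1.44% lower. Levels were low: the list summed to 40.7 and 49.9 CPM in MUT and 2.87 to 18.0 CPM in WT. The median log2 fold change was 2.97, and it was the same when genes at 0 counts in WT were set at their lower bound. The 13 became 8 without CM59, 4 without CM69, 6 in DESeq2 and 3 in limma, and 2 passed against WT70. Hoxd3 had 2.05 CPM in each MUT library and no count in any WT library, which makes it at least 40.4-fold higher (3 counts over the 4 WT libraries in place of 0). Hoxd4 was at least 19.2-fold and Hoxa5 at least 12.8-fold higher by the same rule. Hoxd1, at 0.841 and 1.34 CPM in MUT and 0 to 0.333 CPM in WT, held against both sets. Cdx2, a caudal homeobox gene, had 5.15 and 5.05 CPM in MUT and 0.465 to 1.26 CPM in WT, and missed against WT70.

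Lineage markers of an embryo atlas, as the study lists them, were counted too, beside 1.93% higher and 1.44% lower over all tested genes. Of 79 tested mesoderm markers, 19 were higher and 0 lower, with a median of 0.42 and 5 held. Of 125 endoderm markers, 19 were higher and 4 lower (median 0.16), and of 49 ectoderm markers 0 were higher and 1 lower (median -0.05). Extraembryonic mesoderm markers were higher in 24 of 121 and lower in 2. Of 38 primitive streak markers, 3 were higher and 4 lower. Of 487 visceral endoderm markers, 20 were higher and 12 lower (median 0.007). Of 73 epiblast markers, 1 was higher and 9 lower (median -0.31). Among 275 extraembryonic ectoderm, 115 angioblast and 55 non-neural ectoderm markers, 7, 3 and 1 were higher and 12, 3 and 2 lower. Primordial germ cell and neuromesodermal progenitor markers were higher in 10 of 90 and 12 of 100, and lower in 3 and 0.

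**Figure D4:**
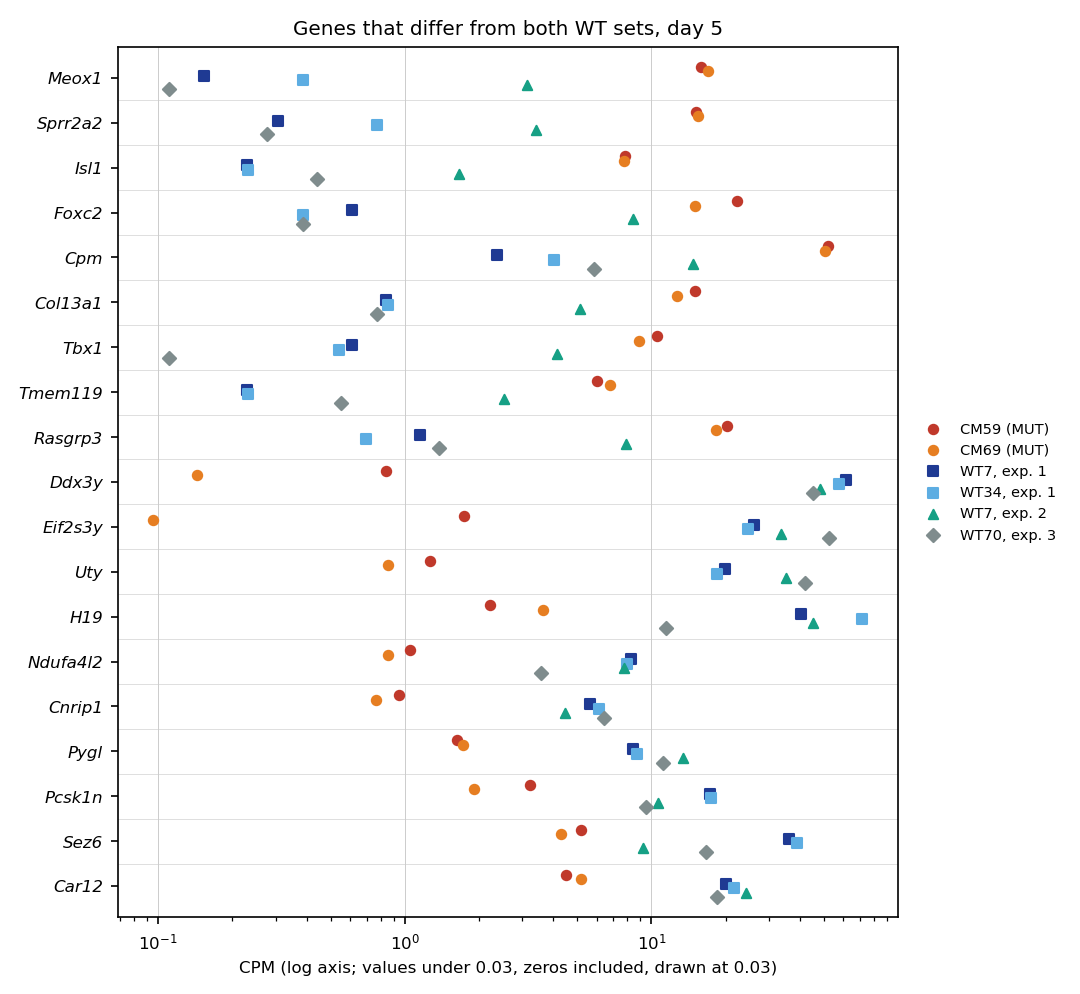
CPM (log axis) in each day 5 library of 9 higher and 10 lower held genes with large changes against all WT. The genes were chosen with both MUT libraries (circles) outside the range of the 4 WT libraries. In the upper 9 genes WT7 of experiment 2 (triangle) is the WT library nearest to MUT.

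Signalling genes changed in smaller numbers, beside 1.93% higher and 1.44% lower over all tested genes. Of 40 Wnt ligands, receptors and modulators, 7 were higher and 0 lower, with a median of 0.19, and 1 held: Rspo3, an R-spondin that strengthens Wnt signals, at 26.8 and 19.5 CPM in MUT, against 1.16 to 10.9 CPM in WT7 and WT34 and 2.48 CPM in WT70. The secreted Wnt antagonist Dkk1 had 15.2 and 14.5 CPM in MUT and 1.91 to 8.98 CPM in WT, and missed against WT70 (adjusted p = 0.242). The Wnt target Axin2 (72.0 and 77.5 CPM in MUT, 81.2 to 128 CPM in WT) and the repressor Tcf7l1 (68.4 and 68.0 CPM in MUT, 65.1 to 150 CPM in WT) did not pass against all WT. Of 18 Wnt targets and TCF factors only Cdx2 and T passed.

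The Nodal pathway had 3 of 21 members higher, Cfc1 and Fst among them, with a median of 0.18, and none held. Nodal itself had 3.37 and 3.15 CPM in MUT, against 3.48 to 4.21 CPM in WT7 and WT34 and 0.937 CPM in WT70. Its feedback inhibitors Lefty1 and Lefty2 were at or under 2.63 CPM in all 6 libraries and did not pass. In the BMP pathway 2 of 27 were higher (Bmp5 and Bmp2), and in the FGF pathway 1 of 26 was higher (Fgf10). Over all tested genes 1.93% were higher and 1.44% lower. In the retinoic acid list 2 of 16 were higher and 1 lower. Rarb, a retinoic acid receptor, held at 5.15 and 5.82 CPM in MUT and 0.387 to 1.86 CPM in WT. Aldh1a2, the main enzyme of retinoic acid synthesis in the trunk, had 39.3 and 36.8 CPM in MUT, against 18.8 CPM in WT7 of experiment 2 and 0.918 to 2.15 CPM in the other WT libraries, and missed against WT70 (adjusted p = 0.06).

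Several held genes outside these lists also had MUT levels far from WT. Kitl, the ligand of the receptor Kit, stood at 20.7 and 22.9 CPM in CM59 and CM69 and 2.43 to 9.78 CPM in WT. Col13a1, a transmembrane collagen, had 15.0 and 12.7 CPM in MUT and 0.772 to 5.12 CPM in WT. Rasgrp3, a Ras activator, had 20.2 and 18.4 CPM in MUT and 0.697 to 7.92 CPM in WT. Of 17 tested blood and endothelium genes, 2 were higher (Flt1 and Kdr) and 2 lower (Eng and Plvap), with a median of 0.47. Over all tested genes 1.93% were higher and 1.44% lower. Flt1, a VEGF receptor of endothelium, was the only one that held, at 39.5 and 39.2 CPM in MUT and 9.81 to 28.5 CPM in WT.

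Lower held genes are described by example. Car12, a carbonic anhydrase, stood at 4.52 and 5.2 CPM in CM59 and CM69, against 20.0 to 24.2 CPM in WT7 and WT34 and 18.4 CPM in WT70 (log2 fold change -2.12 ± 0.26, adjusted p = 1.38e-05, edgeR). Pygl, the liver glycogen phosphorylase, stood at 1.63 and 1.72 CPM in MUT and 8.41 to 13.4 CPM in WT (-2.64 ± 0.38, adjusted p = 0.000113). Lpl, lipoprotein lipase, stood at 25.6 and 17.8 CPM in MUT and 45.9 to 88.4 CPM in WT. For Car12, Pygl and Lpl both MUT libraries lay below all 4 WT libraries.

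Cnrip1, a protein that binds the cannabinoid receptor, had 0.947 and 0.763 CPM in MUT and 4.46 to 6.45 CPM in WT (-2.72 ± 0.33, adjusted p = 1.04e-05). Pcsk1n, a neuroendocrine inhibitor of prohormone processing, had 3.21 and 1.91 CPM in MUT and 9.48 to 17.4 CPM in WT (-2.42 ± 0.26, adjusted p = 1.94e-06). Sez6, a neuronal membrane protein, had 5.21 and 4.29 CPM in MUT and 9.25 to 38.8 CPM in WT, and was just past the threshold against WT70 (adjusted p = 0.0477).

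Ddx3y, Uty and Eif2s3y, genes of the Y chromosome, were nearly absent from both MUT lines. Ddx3y, an RNA helicase, stood at 0.841 and 0.143 CPM in CM59 and CM69, against 61.3, 57.6 and 48.2 CPM in WT7 and WT34 and 45.2 CPM in WT70 (log2 fold change -6.77 ± 0.40, adjusted p = 2.52e-11, edgeR). Uty, a histone demethylase paralog, had 1.26 and 0.858 CPM in MUT and 18.5 to 42.1 CPM in WT. Eif2s3y, a translation initiation subunit, had 1.74 and 0.0954 CPM in MUT and 24.6 to 52.5 CPM in WT. All 3 held against both sets. On day 3 Ddx3y was likewise at 1.39 and 0.168 CPM in MUT, against 41.8 to 54.0 CPM in the 5 WT libraries of that day. Kdm5d, another Y-linked gene, was at 1.47 and 2.19 CPM in MUT and 1.73 to 2.83 CPM in WT. All 4 genes have close X-linked paralogs, and reads that the copies share cannot be assigned with certainty. Per the study's methods the MUT clones were made from WT7, a male line, whose Ddx3y levels are among those given above. Low levels of Ddx3y, Uty and Eif2s3y and the Tet1 edit occur in the same lines, so their parts in the other differences cannot be told apart. Of the 17 tested genes of chromosome Y, 4 were lower (the 3 above and Gm29650, with no count in MUT and 0.542 to 0.932 CPM in WT) and the median was -0.33, while the medians of the autosomes lay between -0.04 and 0.03 and that of chromosome X was 0.05.

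Imprinted genes changed in both directions, with 4 of 45 tested members higher and 4 lower (1.93% and 1.44% of all tested genes) and a median of 0.05. H19, a maternally expressed noncoding RNA, fell to 2.21 and 3.62 CPM in CM59 and CM69, against 40.5 to 71.7 CPM in WT7 and WT34 and 11.5 CPM in WT70. It held, with log2 fold changes of -4.16 ± 0.39 over WT7 and WT34 (adjusted p = 4.7e-07, edgeR) and -1.96 ± 0.47 over WT70 (adjusted p = 0.0246). Its neighbour Igf2, a paternally expressed growth factor, rose to 556 and 550 CPM in MUT, against 208 to 267 CPM in WT7 and WT34 and 317 CPM in WT70, and missed against WT70 (0.80 ± 0.29, adjusted p = 0.186). In Tet1 knockout (KO) cells of day 5, which were set against the same WT libraries, H19 was at 274 to 589 CPM and Igf2 at 1126 to 1876 CPM.

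Grb10, an imprinted adaptor of growth factor receptors singled out here after its values were seen, shows how a WT set decides a value. It stood at 817 and 865 CPM in MUT, against 199, 264 and 246 CPM in WT7 and WT34 but 15.3 CPM in WT70. The log2 fold change was 1.83 ± 0.36 over WT7 and WT34 (adjusted p = 0.00214) and 5.78 ± 0.68 over WT70 (adjusted p = 1.78e-05). On day 3 Grb10 was at 429 and 444 CPM in MUT, and WT70 was again the lowest WT library, with 96.0 CPM against 212 to 306 CPM. Zim1, a zinc finger gene, also held, at 17.1 and 15.9 CPM in MUT and 2.48 to 7.65 CPM in WT.

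Among the genes that differed from WT70 alone were imprinted genes low in WT70. Meg3 and Rian, maternally expressed noncoding RNAs of the Dlk1-Dio3 imprinted cluster, stood at 187 and 232 CPM (Meg3) and 261 and 322 CPM (Rian) in CM59 and CM69. In WT7 and WT34 they stood at 260 to 312 CPM and 305 to 378 CPM, but in WT70 at 0.937 and 1.27 CPM. MUT therefore differed from WT70 by 7.79 ± 0.35 (adjusted p = 8.02e-14, edgeR) and 7.84 ± 0.28 on the log2 scale, and did not pass against WT7 and WT34. Mirg, of the same cluster, followed: 8.10 and 10.3 CPM in MUT, 12.0 to 17.1 CPM in WT7 and WT34, and 2 counts in WT70. On day 3 Meg3 was likewise at 1.17 CPM in WT70 and at 491 to 628 CPM in the other WT libraries. The lowest genes against WT70 only were Dcc, a netrin receptor, Edaradd, a death domain adaptor, and Brinp2, a neural gene. Dcc had 4.21 and 5.10 CPM in MUT, against 10.2 to 12.7 CPM in WT7 and WT34 and 32.6 CPM in WT70.

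The genes that differed most from WT7 and WT34 alone included immediate early genes, which respond within minutes to stimuli. Egr3 had 0.947 and 0.620 CPM in MUT, against 57.7 and 67.2 CPM in WT7 and WT34 of experiment 1, 0.532 CPM in WT7 of experiment 2 and 0.331 CPM in WT70. Egr4 and Klf2 showed the same pattern, with 34.8 to 51.5 CPM in the experiment 1 libraries and at most 1.13 CPM in the other 4. Of 19 members of the immediate early and stress list, 3 were lower against all WT, 11 against WT7 and WT34 and 0 against WT70. Over all tested genes the lower shares were 1.44%, 2.37% and 0.452% in that order. KO cells of day 5 also had 51.6 and 66.9 CPM of Egr3 in experiment 1 and 0.658 CPM in experiment 2. Egr3 was therefore high in the day 5 libraries of experiment 1 whatever their genotype. Among p53 targets, 2 of 20 were lower against all WT (Phlda3 and Sesn2), 4 against WT7 and WT34 and 0 against WT70, and the list summed to 1526 and 1617 CPM in MUT, against 3207 CPM in WT7 and 2867 CPM in WT34 of experiment 1, 1494 CPM in WT7 of experiment 2 and 1886 CPM in WT70. The part of the differences between experiments in the other results was not tested.

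**Figure D5:**
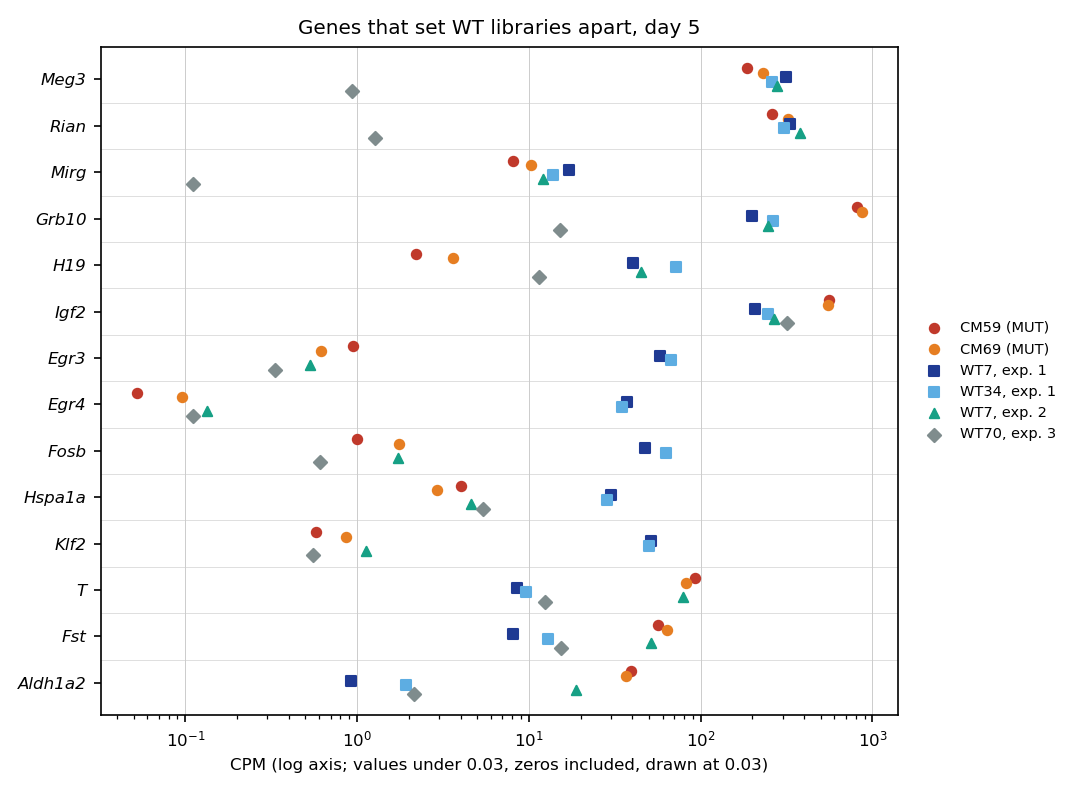
CPM (log axis) in each day 5 library of 14 genes, shown because they set WT libraries apart. Meg3, Rian, Mirg and Grb10 are low in WT70 (diamond), Egr3, Egr4, Fosb, Hspa1a and Klf2 are high in WT7 and WT34 of experiment 1 (squares), and T, Fst and Aldh1a2 are high in WT7 of experiment 2 (triangle) and in both MUT lines (circles).

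Genes higher in MUT against WT7 and WT34 only were led by Arg1, arginase, at 9.41 and 9.73 CPM in MUT and 0 to 1.40 CPM in WT, with Spink1 and Rgs5, a regulator of G protein signalling in pericytes, at 5.78 and 5.82 CPM in MUT and 0 to 1.40 CPM in WT. For Arg1 and Rgs5 the MUT libraries were also above WT70, without passing (adjusted p = 0.0881 and 0.0691). Of the pluripotency genes, Pou5f1 (Oct4) stood at 73.2 and 57.2 CPM in MUT, against 121 to 159 CPM in WT7 and WT34 and 64.3 CPM in WT70. Its log2 fold change was -1.07 ± 0.20 over WT7 and WT34 (adjusted p = 0.00176, edgeR) and 0.02 ± 0.27 over WT70. Utf1, a chromatin factor of pluripotent cells, had 5.10 and 2.91 CPM in MUT, against 9.65 to 25.9 CPM in WT7 and WT34 and 5.68 CPM in WT70.

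The count of called genes depended on single libraries. Without CM59 271 genes and without CM69 210 genes passed against all WT, without WT7 or without WT34 of experiment 1 366 and 382, and 686 with all libraries. Without WT7 of experiment 2, 1288 genes passed against all WT, 2225 against WT7 and WT34 and 301 against both sets with the same sign. Set against the 2 WT libraries of experiment 1 alone, 2226 genes passed, and against WT7 of experiment 2 alone 75 passed (15 higher and 60 lower). Of the 72 higher held genes, all were above WT7 of experiment 2, 46 by more than 1 on the log2 scale, and 3 passed: Cpm, Prrx2 and Parm1, a mucin-like membrane protein with 20.7 and 18.2 CPM in MUT and 3.21 to 8.25 CPM in WT. Their median log2 fold change was 1.13 against that library, 2.22 against experiment 1 and 2.51 against WT70. Of the 68 lower held genes, 32 passed against WT7 of experiment 2, among them Car12, Pygl, Cnrip1, Pcsk1n, H19, Ddx3y, Uty and Eif2s3y, and the medians were -1.56, -1.77 and -1.90. The medians against WT70 and experiment 1 are from sets that were used to choose the held genes, so their order is no test.

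The lineage lists were counted against each experiment as well. Against WT7 of experiment 2 alone, 1 mesenchymal mesoderm gene, 0 cardiac transcription factors, 1 endoderm gene, 0 primitive streak genes and 0 Hox and Cdx genes passed, with medians of 0.93, 0.93, 0.51, 0.06 and 1.68. Against experiment 1 alone the counts were 22, 13, 12, 11 and 14, with medians of 1.83, 2.82, 2.11, 2.65 and 4.20. T differed from WT7 of experiment 2 by 0.15 on the log2 scale, Foxc1 by 1.06, Cpm by 1.80 and Car12 by -2.31. Some held genes stayed held in every fit that left out a library other than WT70. Among the higher ones were Cpm, Mesp2, Kitl, Col13a1 and Parm1, but not Isl1, Tbx1, Tbx20, Smarcd3, Foxa1, Prdm1, Rspo3, Rarb or Hoxd1. Among the lower ones were Car12, Pygl, Cnrip1, Pcsk1n, Ddx3y, Uty and Eif2s3y, but not H19, Lpl, Sez6, Lmo1 or Myt1l. Without CM59 45 genes held, 40 of them among the 140, and without CM69 49 genes held, 48 of them among the 140.

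Against the KO comparison of the same day, which shares the WT libraries, the panel genes had these values. KO against WT gave 1306 higher (6.42%) and 1209 lower genes (5.94%). For Pax6 the log2 fold change was -0.54 in MUT and -4.16 in KO, for Sox1 0.25 and -4.04, for Hand2 2.70 and 5.91, for Gata4 1.96 and 3.25, and for T 1.67 and 2.05. On the anterior neural progenitor list 19 of 26 genes were lower in KO and 1 in MUT. On the mesenchymal mesoderm list 25 of 32 were higher in KO and 17 in MUT. Pygl, lower in MUT, was at 10.7 to 12.7 CPM in KO cells, within the WT range. The difference between the KO and MUT effects was not tested.

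On day 3 MUT differed from WT in 24 higher (0.118%) and 45 lower genes (0.221%), 0.339% together. Foxc1 was at 1.92 and 1.89 CPM in MUT and 0.912 to 1.67 CPM in the 5 WT libraries, and Cpm at 2.84 and 2.30 CPM in MUT and 1.39 to 3.01 CPM in WT. Car12 was already lower on day 3, at 1.97 and 2.72 CPM in MUT and 6.27 to 7.70 CPM in WT (log2 fold change -1.53, adjusted p = 0.00218, edgeR), and so was Pygl (-1.98, adjusted p = 0.0152).

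Some lists had no gene past the threshold. No member of the Notch (23 tested), Polycomb (18), clustered protocadherin (39), cholesterol synthesis (23), proliferation (20) or non-neural ectoderm (13) lists passed against all WT in edgeR or DESeq2. In edgeR 5, 4, 3, 7, 12 and 2 of them had an unadjusted p under 0.05, beside 4742 of all 20338 tested genes. On the TET, DNMT and cofactor list 1 of 14 was lower (Apobec1, a cytidine deaminase), beside 1.44% of all tested genes. On the proliferation list both MUT libraries were below all WT libraries in 12 of 20 genes (12.0% over all genes), with a median of -0.15. Cdc20 (-0.63 ± 0.12, adjusted p = 0.00179), Plk1 (-0.54 ± 0.11, adjusted p = 0.00311), Ccna2 (-0.31 ± 0.07, adjusted p = 0.00874) and Aurkb (-0.37 ± 0.09, adjusted p = 0.0113), genes of mitosis and the cell cycle, had an adjusted p under 0.05 in edgeR but stayed under the fold threshold. Dnmt3b, a de novo DNA methyltransferase, was at 182 and 148 CPM in MUT and 183 to 310 CPM in WT, a change of -0.66 ± 0.14 (adjusted p = 0.00414) that stayed under the fold threshold. Feeder fibroblast markers moved in both directions, with 2 of 16 higher and 3 lower (1.93% and 1.44% of all tested genes). They summed to 212 and 263 CPM in MUT and 216 to 403 CPM in WT. Collagen and laminin genes had 6 of 30 higher and 2 lower, with Col12a1 (higher) and Col6a2 (lower) held.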

How the data were processed

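RNA was measured by bulk sequencing in 36 libraries of 3 experiments. Per the submitters' processing notes and the paper's methods, the authors used Trim Galore 0.6.4 for trimming, then Salmon 0.14.1 on mouse GENCODE transcripts (mm10), and tximport to sum per gene. The deposited expected counts were used as the main data, and the deposited TPM values in 1 alternative only. Expected counts were rounded, genes were filtered with edgeR 4.0.16 (minimum count 10, minimum total 15, 20338 of 54281 genes left), and CPM was scaled by TMM factors. Reads common to close paralogs are split by an estimate, which leaves such genes uncertain.

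All 36 libraries entered quasi-likelihood fits of edgeR (R 4.3.3) with 14 genotype and day means (22 residual degrees of freedom), or 16 with WT70 apart (20), and no experiment term. The study used DESeq2. The spread of a group with 1 library was taken from the other groups. SE is the log2 fold change over the square root of F. Ratios against 1 to 3 counts carry a 95% exact interval, and bounds use 3 counts. No pair of the 6 libraries agreed within sampling noise, so none was counted as a duplicate. Code was tested on simulated data. Alternatives were DESeq2 1.42.0, RLE factors, other filters and folds, limma 3.58.1 on log2(TPM + 1), an experiment term, the 6 libraries alone and libraries left out.

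The members and gene lists were chosen with earlier results of these data known. Named genes were a panel of 28 genes, the 10 highest and 10 lowest held genes of at least 5 CPM whose MUT libraries lay outside the WT range (predicted genes left out), up to 5 genes of smallest p per list, and the 3 highest and lowest that passed against 1 WT set only. Other named genes were chosen after their values were seen. Positions came from GENCODE M21 (GRCm38). Some genes are not reported here.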

Additional observations from a re-analysis of the deposited data

Results flagged for a closer look

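Of the 47 panel and held genes checked, 15 had 1 WT library of day 5 far from the other 3 by Dixon's criterion. The criterion assumes independent, normally distributed values, and these genes were picked from the same data. The count is therefore not set against a chance rate. In 12 of them the library was WT7 of experiment 2, with the highest WT level. It had 78.7 CPM of T against a median of 9.60 CPM in the other 3 WT libraries, 8.38 CPM of Foxc2 against 0.387 CPM, 7.92 CPM of Rasgrp3 against 1.15 CPM, 5.12 CPM of Col13a1 against 0.841 CPM and 4.13 CPM of Tbx1 against 0.542 CPM. It had 3.39 CPM of Sprr2a2, 3.13 CPM of Meox1, 2.53 CPM of Tmem119 and 2.33 CPM of Lefty2, each against at most 0.306 CPM. It also had 1.66 CPM of Isl1, 1.26 CPM of Hand2 and 0.932 CPM of Mixl1. WT70 stood apart for the remaining 3 genes, with 128 CPM of Axin2 and 55.1 CPM of Pax6 as the highest and 3.58 CPM of Ndufa4l2 as the lowest WT level. The held genes among the 12 were chosen with both MUT libraries above all WT libraries, so their order is no result. The panel genes T, Hand2, Lefty2 and Mixl1 were not chosen in this way. For T and Hand2 both MUT libraries were above WT7 of experiment 2. For Lefty2 (2.63 and 1.53 CPM in MUT) and Mixl1 (0.526 and 0.429 CPM in MUT) they were not.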

How the results depend on the processing

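No paired analysis was possible because MUT and WT shared no cell line, and a shared replicate number paired no culture. Counts below are genes past the threshold, in the order MUT against all WT, against WT70, against WT7 and WT34, and held genes (686, 238, 868 and 140 as reported). A log2 fold change beyond 1.5 left 409 against all WT, 525 against WT7 and WT34 and 79 held. A term for experiment 2 gave 1128, 408, 1833 and 250. Only the 6 day 5 libraries gave 1, 8, 0 and 0. limma on log2(TPM + 1) gave 226, 133, 288 and 50. No filter on low counts gave 548 against WT70 and 282 held. Setting MUT against WT of experiment 1 or of experiment 2 only, chosen after seeing the data, gave 2226 and 75. Leaving out 1 library gave 210 to 1288, 85 to 412, 226 to 2225 and 45 to 301. The lowest counts came without CM59 (271, 85, 339 and 45) or CM69 (210, 115, 226 and 49), and the highest without WT7 of experiment 2. Without WT7 or WT34 of experiment 1, 366 and 382 passed against all WT and 332 and 394 against WT7 and WT34. The share of higher genes against all WT was 57.3%, against 48.4% in DESeq2 (381 higher and 407 lower), 44.9% without WT70 (396 and 486), 73.9% in limma and 20.0% with WT of experiment 2 only. Against WT7 and WT34 it was 44.4%, against 64.2% in limma, and among held genes 51.4%, against 80.0% in limma, 69.5% without the filter and 63.6% with the experiment term. WT70 against WT7 and WT34 (95 genes) gave 54 at the fold of 1.5, 554 with no filter, 806 with the experiment term, 3 in the 6 libraries, 245 in DESeq2 and 45 to 822 with 1 library left out. KO on day 5 (2515) gave 1670 at the fold of 1.5 and 891 in limma, and MUT on day 3 (69) gave 35 at that fold, 112 with no filter, 182 with the experiment term, 124 in DESeq2 and 13 in limma. Egr3 turned to 0.541 with WT of experiment 2 only, where it did not pass. The causes were not tested. With 2 MUT clones and 4 WT libraries from 3 experiments, clone, experiment and genotype cannot be told apart fully, and genes of 0 to 3 counts in a library carry wide intervals.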
